A study of Mus musculus with 2 samples.

Results

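The genes described here are 7 ligands of the epidermal growth factor (EGF) family, Areg, Hbegf, Ereg, Btc, Tgfa, Egf and Nrg1, and 3 of their receptors, Egfr, Erbb2 and Erbb3. They were chosen by name, and all 10 were found among the 23477 genes of the table. Where a gene had several transcript rows the one with the most reads was kept, which mattered for Egfr alone. The RNA came from eosinophils, granulocytes that live in the gut wall in health, sorted by flow cytometry after enzymatic digestion of the colons of naive wild-type C57BL6 mice. There was 1 group with 2 samples, each made into 3 technical libraries by CEL-Seq, a method that reads tags near the 3′ end of messenger RNA. The sources used here give neither the age and number of the mice nor the sort gate.

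The table gives 1 mean over the 6 libraries per transcript, as reads and as RPKM, the reads per kilobase of transcript and per 1000000 reads. Values of the single samples were not analysed here. The levels therefore carry no SD, n or test, and there is no second condition to compare them with. Levels are given with exact 95% Poisson intervals of the reads, which cover counting error only. These intervals, and those of shares of reads, take every read as independent. If some reads are copies of 1 molecule, the intervals are too narrow. Reads per 1000000 reads on genes (RPM) stand beside RPKM, because a tag near the 3′ end does not become more frequent with transcript length. Counting only the row kept per gene, the 6 libraries together held 7692119 reads on genes. For a total of 0 reads a one-sided limit of 3 reads, or 0.390 RPM, was used in place of the interval. Of the 10 eosinophil marker genes, 9 reached an RPKM of 1, beside 31.0% of all genes. Among them was the eotaxin receptor Ccr3 at 155, and the peroxidase gene Epx was the exception at 0.265. All 10 epithelial markers described below also reached an RPKM of 1, so this count does not set eosinophils apart.

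EGF family ligands are made as membrane-anchored precursors that proteases such as ADAM17 and ADAM10 cut free. The released ligands bind receptor tyrosine kinases of the ErbB family, which pair and signal through the RAS to MAP kinase and PI3 kinase routes. In the gut the pathway is known for growth and repair of the epithelium, and amphiregulin, the product of Areg, is known as a repair factor that immune cells can supply.

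Hbegf, the heparin-binding ligand of EGFR and ERBB4, was the most abundant member, and the family transcripts fell into a detected set and a set near the detection limit. Above the limit stood the ligands Hbegf, Areg and Ereg and the receptors Erbb2 and Erbb3, each with 40 or more reads. Btc, Tgfa, Egf, Nrg1 and Egfr each had 8 reads or fewer over the 6 libraries. All 7 ligands and 3 receptors had a level above 0, as did 69.0% of all genes. An RPKM of 1 was reached by 2 of 7 ligands and 0 of 3 receptors, beside 31.0% of all genes, and an RPKM of 5 by 1 ligand, Hbegf, beside 14.2%. By RPM, 3 of 7 ligands and 3 of 3 receptors reached 1, beside 50.9% of all genes. RPM differs from RPKM in leaving out length and in dividing by the reads on genes, which were 43.8% of the summed library depths. It also pools the reads of the 6 libraries, whereas the RPKM is a mean of the values of single libraries.

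**Figure D1:**
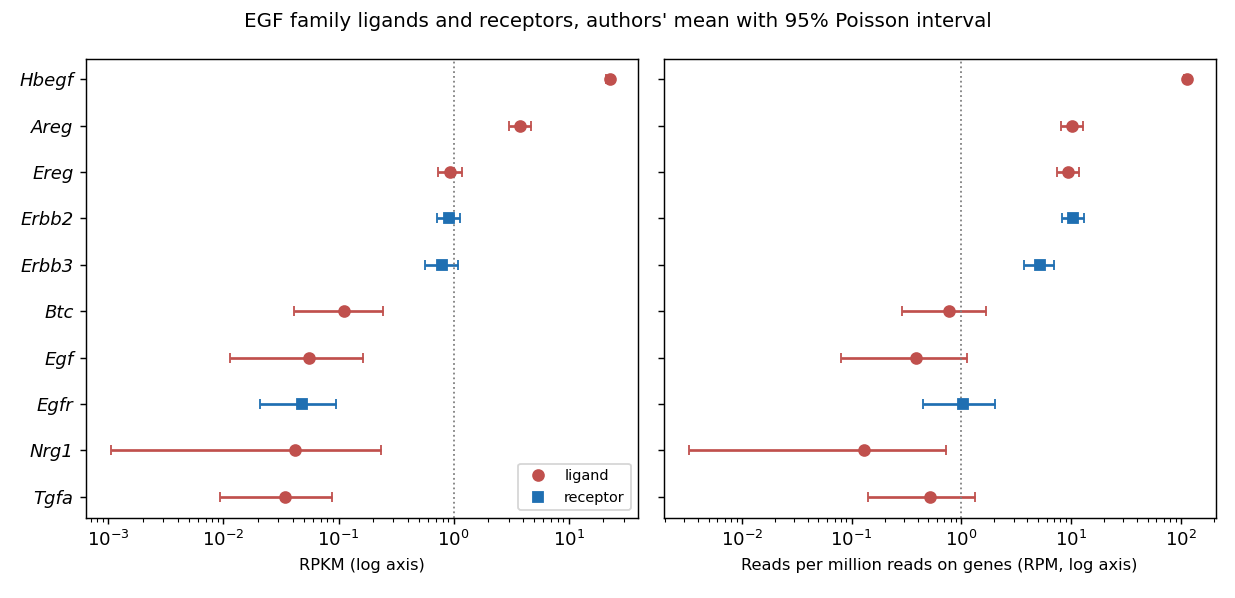
Level of the 10 genes as RPKM (left) and as RPM (right), both on log axes, with ligands as red circles and receptors as blue squares. Points are the authors' mean over 6 libraries, bars are 95% Poisson intervals of the reads and the dotted line marks 1. Hbegf stands alone at an RPKM of 22.6, and the intervals of the 5 lowest genes overlap.

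Among the ligands, Hbegf had a mean of 147.5 reads per library, 885 in all. Its RPKM was 22.6 (21.2 to 24.2) and its RPM 115 (108 to 123), a level above that of 95.2% of genes by RPKM. By RPKM it ranked 1124 among all genes, just below Abracl and Ccdc115, both at 22.7, and just above Nme3 at 22.6 and Fbxw7 at 22.5. Areg, which encodes amphiregulin, a lower-affinity ligand of EGFR, followed with 79 reads and an RPKM of 3.80 (3.01 to 4.74). Hbegf was thus 5.95-fold higher than Areg by RPKM and 11.2-fold higher by RPM, and their intervals did not overlap on either scale.

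Ereg, which encodes epiregulin, a ligand of EGFR and ERBB4, had 73 reads, nearly as many as Areg. Its RPKM was 0.931 (0.730 to 1.17), just under 1. RPKM divides by length, and GENCODE M21 lists 4128 bases for Ereg and 1215 for Areg. By RPKM Areg was 4.08-fold higher than Ereg with intervals that did not overlap. By RPM the fold was 1.08, with Areg at 10.3 (8.13 to 12.8) and Ereg at 9.49 (7.44 to 11.9), so the order of these ligands is not set by the reads.

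The other ligands were near the limit of detection. Btc, the gene of betacellulin, had 6 reads and an RPKM of 0.112 (0.0411 to 0.244). Tgfa, the gene of transforming growth factor alpha, had 4 reads and an RPKM of 0.0340 (0.00925 to 0.0869). Egf, the founding member of the family, had 3 reads and an RPKM of 0.0555 (0.0115 to 0.162). Nrg1, the neuregulin ligand of ERBB3 and ERBB4, had 1 read and an RPKM of 0.0419 (0.00106 to 0.233). Computed from reads and depths pooled over the libraries at its GENCODE length, the Nrg1 value was 0.0232. That value differs in both the pooling and the length. The intervals of these 4 overlap, and none could be ranked against the others.

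For genes with so few reads the RPKM value itself shows which library held them, since the libraries differed in depth from 1892486 to 4752357 reads. The libraries could not be assigned to the 2 samples. All 4 reads of Tgfa matched the library of 4343107 reads, and all 3 reads of Egf matched the shallowest library. Of the 6 reads of Btc, 4 matched the library of 4343107 reads and 1 each the libraries of 1892486 and 2070937 reads. Each of these was the only division of the reads that matched the RPKM, among 126, 56 and 462 possible ones. The labels name no molecular identifiers, so several reads of 1 library may be copies of 1 molecule. For Nrg1 and Egfr 0 divisions matched, and no library was assigned.

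Among the receptors, Erbb2, the partner receptor that binds no known ligand of its own, had 81 reads and an RPKM of 0.911 (0.723 to 1.13). Erbb3, a neuregulin receptor with a weak kinase domain, had 40 reads and an RPKM of 0.795 (0.568 to 1.08). Their RPKM intervals overlapped, whereas by RPM Erbb2 at 10.5 (8.36 to 13.1) was 2.02-fold higher than Erbb3 at 5.20 (3.72 to 7.08), with intervals that did not overlap. The RPKM of Erbb3 rests on a transcript of at most 4429 bases, as its reads and the library depths show, while GENCODE M21 lists 6016. Computed from reads and depths pooled over the libraries at that longer length, the value of Erbb3 was 0.379. It differs from the authors' RPKM in the pooling as well as the length. Egfr, the receptor that Areg, Hbegf, Ereg, Btc, Tgfa and Egf all bind, had 8 reads and an RPKM of 0.0481 (0.0208 to 0.0949). Erbb2 was 18.9-fold higher than Egfr by RPKM and 10.1-fold by RPM. The shorter Egfr transcript row, which was not kept, had 2 reads.

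The place among all genes differed between the scales for some members. Areg lay above 83.5% of genes by RPKM and 74.5% by RPM. Egfr, with a GENCODE transcript of 10208 bases, lay above 37.8% by RPKM and 49.1% by RPM. For Hbegf the 2 values were 95.2% and 94.8%, and for Erbb3 66.3% and 66.6%. With RPM in place of RPKM, 5 of 10 members stayed within the range that their Poisson interval gives.

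**Figure D2:**
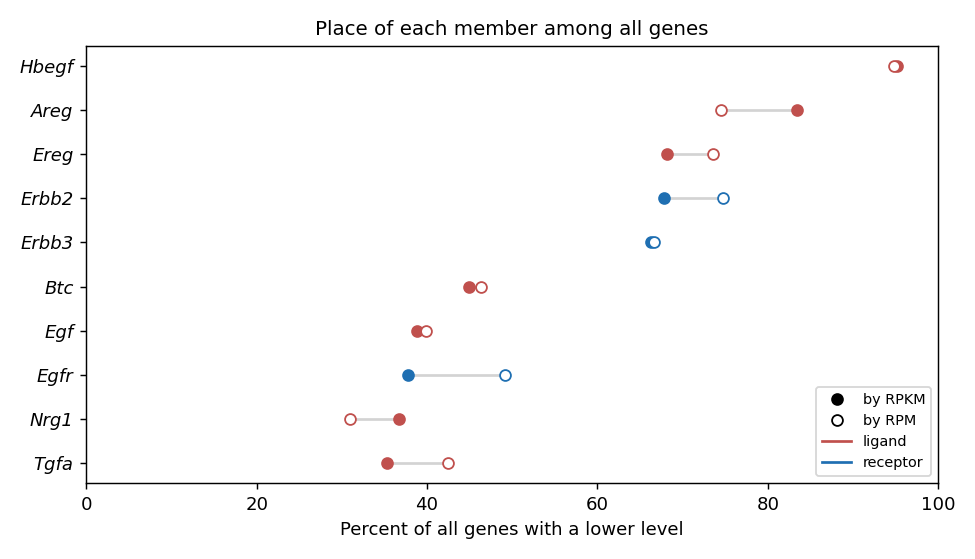
Percent of all 23477 genes with a lower level than each member, by RPKM (filled) and by RPM (open), with ligands in red and receptors in blue. Hbegf is at 95.2% by RPKM and 94.8% by RPM, whereas Egfr moves from 37.8% to 49.1%.

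Ligands were then set against receptors. Summed over the 7 ligands the RPKM was 27.6, against 1.75 over the 3 receptors, a 15.7-fold difference that was 8.15-fold by RPM. Hbegf alone made up 82.0% of the ligand sum and 84.2% (81.9 to 86.4, exact Clopper-Pearson) of the ligand reads. Of all member reads, 89.1% (87.1 to 90.8) were on ligands. Without Hbegf the sum of the ligand RPKM was 4.98, or 2.84-fold that of the receptors (1.29-fold by RPM), and the ligand share of reads was 56.3% (50.4 to 62.0). These sums and shares set 7 ligands, or 6 without Hbegf, against 3 receptors, so they are not levels per gene. The medians ran the other way: the median ligand had an RPKM of 0.112 and the median receptor 0.795, beside 0.186 over all genes. Sums and medians thus differed in direction, with 3 of 7 ligands above the median receptor and 4 below it.

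Of the family genes outside the members, none reached an RPKM of 1. Erbb4, the remaining receptor, had 4 reads and an RPKM of 0.0766 (0.0209 to 0.196). The neuregulin genes Nrg2 and Nrg4 had 2 reads each, at an RPKM of 0.0420 and 0.0364. Epgn, the gene of epigen, and Nrg3 had 0 reads. In the final 500 bases of the 15 family transcripts, 0% of the 35-base words also occurred in a GENCODE M21 transcript of another gene.

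The genes Epgn, Ereg, Areg and Btc lie in this order on mouse chromosome 5. In the mm10 coordinates of the table, Ereg (NM_007950) spans 91074618 to 91093649 and Areg (NM_009704) 91139616 to 91148432, both on the plus strand and 46.0 kb apart. Epgn (NM_053087) spans 91027518 to 91035212 on the plus strand, and Btc (NM_007568) spans 91357262 to 91402994 on the minus strand. The middle genes Ereg and Areg had 73 and 79 reads and the outer ones, Epgn and Btc, 0 and 6. Between Areg and Btc lies the noncoding transcript Gm19619, with 11 reads.

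**Figure D3:**
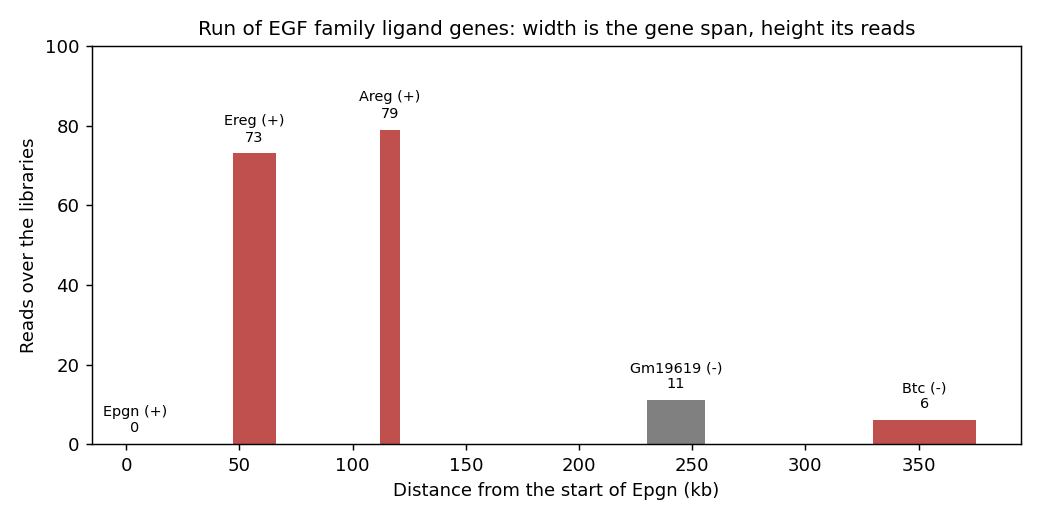
Genes of the ligand run on chromosome 5 by distance from the start of Epgn in kb, with the reads over 6 libraries as bar height, the gene span as bar width and the strand in brackets. Ereg and Areg have 73 and 79 reads, and Btc has 6.

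RefSeq promoter windows, 250 bases before to 50 after the start in GRCm38.p6, were found for 6 of 10 members: Areg, Btc, Tgfa, Egf, Egfr and Erbb2. Hbegf, Ereg, Nrg1 and Erbb3 had none. The windows of Areg, at chr5:91139349-91139648 on the plus strand, and of Erbb2, at chr11:98412234-98412533 on the plus strand, are printed because these genes had nearly equal reads, 79 and 81, and the motif content of their windows differs. Capitals mark the motifs searched on both strands: the cyclic AMP response element (CRE) TGACGTCA and its shorter core TGACGT, which overlaps it, the AP-1 motif TGANTCA, the GC box GGGCGG and the TATA box TATAAA.
Areg: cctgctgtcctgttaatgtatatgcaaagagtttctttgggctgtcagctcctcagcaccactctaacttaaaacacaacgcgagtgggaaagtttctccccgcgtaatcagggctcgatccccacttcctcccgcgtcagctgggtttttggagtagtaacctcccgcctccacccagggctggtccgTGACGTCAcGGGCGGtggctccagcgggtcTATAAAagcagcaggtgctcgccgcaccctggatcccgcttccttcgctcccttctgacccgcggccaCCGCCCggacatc
Erbb2: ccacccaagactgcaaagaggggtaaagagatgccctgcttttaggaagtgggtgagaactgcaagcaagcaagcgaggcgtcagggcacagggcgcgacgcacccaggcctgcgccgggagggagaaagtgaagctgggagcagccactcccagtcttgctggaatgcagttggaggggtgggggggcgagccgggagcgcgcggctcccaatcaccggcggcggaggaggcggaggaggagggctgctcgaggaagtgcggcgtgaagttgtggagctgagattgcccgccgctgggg
The Areg window holds the full CRE from -61 to -54 relative to the start used for the window. It also holds GC boxes from -52 to -47 and, on the other strand, from 38 to 43, and a TATA box from -31 to -26. The start used for the Areg window lies upstream of the Areg start of 91139616 given above. It holds no AP-1 motif. The Erbb2 window holds none of these motifs. Among the 11 windows of family genes, 1 holds the full CRE, that of Areg, as do 1.79% of all 32851 promoter windows. The shorter core is in 1 of the 11 and 7.51% of all windows, and the AP-1 motif in 0 of 11 and 7.81%. The GC box is in 3 of 11 and 35.7%, and the TATA box in 2 of 11 and 13.6%. A match is a description of the sequence and shows no binding.

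A list of 14 CREB and AP-1 factors and related regulators, of kinds known to act on Areg in other cells, had a median RPKM of 49.8. In it 13 genes were at an RPKM of 1 or more, beside 31.0% of all genes. The AP-1 subunit genes Jun, Junb, Fosb and Jund led at 1679, 1240, 1210.3 and 454. The CREB and ATF factor genes of the list were lower but spread widely, with Atf4 at 357 and Atf1 at 11.7. Creb1 and Crem were at 1.53 (1.33 to 1.76) and 1.81 (1.35 to 2.38). The CREB and ATF factor genes, Fos and Fosl2 are named outside the rule, with their values known. Tissue digestion came before sorting, and the part that this handling had in the AP-1 and Hbegf levels was not tested.

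Receptors for signals known to induce Areg in immune cells formed a list of 12 genes, of which 6 were at an RPKM of 1 or more (median 0.774), beside 31.0% of all genes. Il1rl1, the receptor for interleukin-33, had 75.6 (73.8 to 77.5), and Csf2rb, the shared beta chain of the interleukin-5, interleukin-3 and GM-CSF receptors, had 68.4. Adora2a, an adenosine receptor that raises cyclic AMP, had 42.9, and Crlf2, a chain of the TSLP receptor, 32.6. Lower in the list were Il1rap at 1.02 (0.806 to 1.28) and Il7r at 0.524, both named outside the rule. The median by RPM was 7.15, beside 1.04 over all genes.

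Genes that release the ligands were present at low to moderate levels. Of 11 such genes, 5 reached an RPKM of 1 and 10 an RPM of 1, beside 31.0% and 50.9% of all genes, with a median RPKM of 0.389. The metalloprotease gene Adam19 led at 16.2 (15.4 to 17.0), followed by Frmd8, which stabilises the ADAM17 complex, at 5.97. The sheddase genes Adam17 and Adam10 had 173 reads each and an RPKM of 2.50 (2.14 to 2.90) and 2.15 (1.84 to 2.50). Each thus had fewer reads than Hbegf and more than Areg.

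Most signalling genes that act just downstream of the receptors, and of many other receptors too, were at an RPKM of 1 or more. They numbered 11 of 16, beside 31.0% of all genes, with a median of 1.27. The adaptor gene Grb2 had 38.4 and the small GTPase genes Hras and Nras had 17.3 and 8.32. Of 15 feedback inhibitor genes, 6 reached an RPKM of 1 and 13 an RPM of 1, beside the same 31.0% and 50.9% of all genes, with a median RPKM of 0.668. Dusp6, the phosphatase of ERK, had 15.9, while Rnf41, a ubiquitin ligase for ERBB3, had 1.89, Socs4 1.87 and Spry2 1.29.

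**Figure D4:**
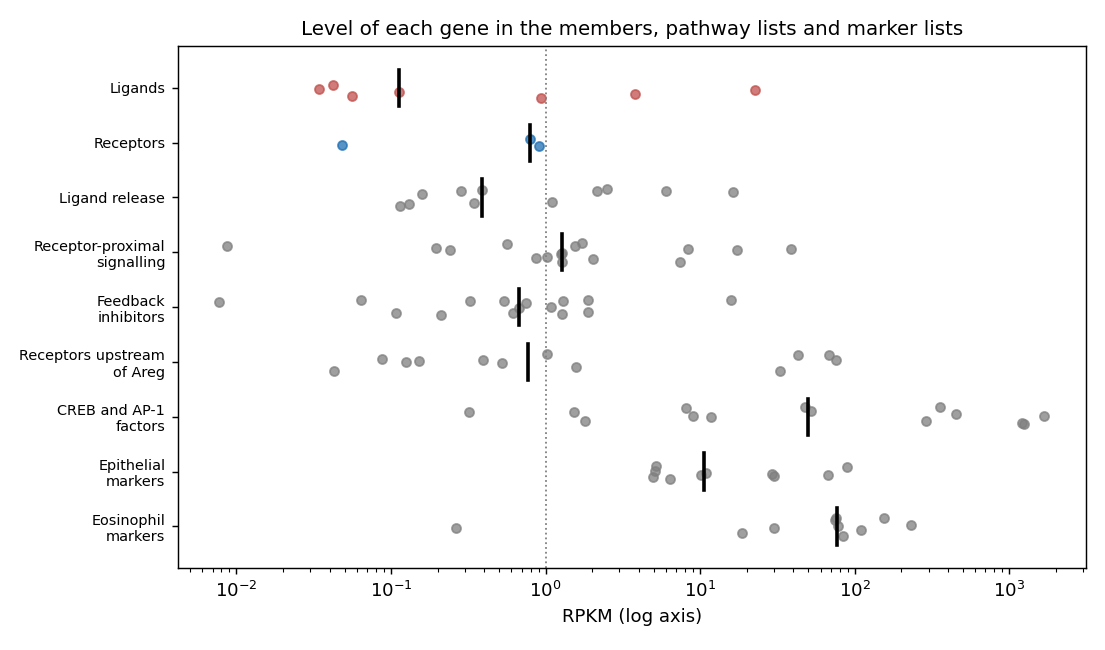
RPKM on a log axis of every gene in the members, in 5 pathway lists and in the epithelial and eosinophil marker lists, with the median of each list as a black bar and an RPKM of 1 as a dotted line. The receptors lie at or below 0.911, whereas all 10 epithelial markers lie between 4.94 and 89.3.

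Markers of other colon cells were present in the same pooled values, and their part in the reads of the members was not tested. Whether their reads lay in the same libraries as those of the members was not tested either. The epithelium is the tissue best known for these receptors, and its 10 markers were all at an RPKM of 1 or more, beside 31.0% of all genes. Their median was 10.5 and their sum 258, with Epcam at 89.3 and Krt19 at 66.7. Fibroblast markers had a median of 8.95, with Col3a1 at 66.7 and Col1a2 at 35.2, and goblet cell markers 17.3, with Zg16 at 46.7 and Muc2 at 30.8. Macrophage and monocyte markers had a median of 3.29, with Csf1r at 41.0 and C1qb at 37.9. Lists of mast cell and basophil, innate lymphoid type 2, T cell, endothelial, neutrophil, and enteric neuron and glia markers had medians from 0.319 to 0.708, and B and plasma cell markers 1.15. Their highest genes were Hdc at 14.5 and Mcpt1 at 2.47, Klrg1 at 8.04 and Il13 at 1.11, Cd4 at 1.56 and Cd3e at 1.44, and Pecam1 at 16.3 and Plvap at 12.4. The remaining lists were led by Retnlg at 11986 and S100a9 at 23.9, Sox10 at 2.14 and Gfap at 1.49, and Jchain at 44.1 and Mzb1 at 1.83. In sorted bulk RNA, few cells of a type with much of a transcript and many cells with little of it cannot be told apart.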

How the data were processed

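Per the labels' protocols, RNA was extracted with Trizol and made into CEL-Seq libraries, 3 per sample. STAR 2.4.2a, DESeq and the build mm10 are named in the submitters' processing notes. Not given in the sources used here are the read counter, its treatment of strand and of multiply aligned reads, and the lengths behind RPKM. The table holds 31295 transcript rows with 2 value columns and 0 columns per sample. RPKM values were computed by the authors, per the file headers. The deposited read totals are the authors' means: 100% of them times 6 are whole within 0.0001.

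The row with the most reads was kept per gene. Reads are the totals times 6, and RPM divides them by their sum over genes. Poisson intervals were scaled to RPKM by 1 factor per gene, so unequal library depths make them approximate there. Depths were read from transcripts with 1 read, at the fullest windows of 0.002%. Each depth had 37 to 98 transcripts and the next window 3. Reads of a gene with 8 or fewer were divided among libraries where the RPKM matched within 0.0003% at a whole length within 0.5% of GENCODE M21. This step was tested on simulated data.

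The members and the lists, 5 of pathway genes and 12 of markers, were chosen with earlier results of these data known. Of 178 list entries, all were matched, 4 by RefSeq accession. Named genes are the members, the other family genes, the 4 highest of each pathway list, the 2 highest of each marker list and the genes next to Hbegf in RPKM. A gene that this rule takes is not reported here. Likeness of pattern could not be computed from 1 pooled value. No test between samples was made. Alternatives were RPM, RPKM rescaled to a sum of 1000000, other row choices, other thresholds, all family genes, medians, log values, genes above 0 only and GENCODE lengths. The values at GENCODE lengths used reads and depths pooled over the libraries. Scripts ran in Python 3.11.15 with scipy 1.17.1, pandas 2.3.3, numpy 2.4.6 and, for plots, matplotlib 3.10.9.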

Additional observations from a re-analysis of the deposited data

How the results depend on the processing

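Leaving out a replicate and fits with a block were not possible, because the table has 1 pooled value per transcript. No paired analysis was possible because the samples form 1 group. The number of ligands at the threshold, 2, became 3 by RPM and 3 on RPKM rescaled to a sum of 1000000. It became 7 when any level above 0 counted and 1 at a threshold of 5. The number of receptors, 0, became 3 by RPM, 2 on RPKM rescaled to a sum of 1000000 and 3 when any level above 0 counted. The log2 ratio of the ligand sum over the receptor sum, 3.98, became 3.03 by RPM, 1.50 without Hbegf, 0.54 on the mean of log2(RPKM + 1) and -2.83 on medians, which reverses it because most ligands are near 0. Alternatives chosen after seeing the data gave 4.28 with GENCODE M21 lengths and pooled reads and depths, and 0.36 by RPM without Hbegf. The GENCODE alternative also put 3 ligands at an RPKM of 1 or more. For the percent of genes below each member, 10 of 10 members stayed within the range of their Poisson interval on rescaled RPKM and with the row of highest RPKM, 9 with all rows summed, 5 by RPM and 0 when only genes above 0 were counted, which takes the genes at 0 out from below every member. At this depth Btc, Tgfa, Egf, Nrg1 and Egfr are too thinly counted for an order.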

Other observations

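The run of ligand genes on chromosome 5 lies beside a run of chemokine genes, looked up after the values were seen. Cxcl2, a neutrophil-attracting chemokine gene, ends 122 kb before Epgn starts and had 88358 reads and an RPKM of 5035. Cxcl3 had 868 reads, close to the 885 of Hbegf, and an RPKM of 52.8, and Cxcl1 had 247 reads and an RPKM of 13.1. Mthfd2l, a mitochondrial folate enzyme gene that lies between Cxcl2 and Epgn, had 2 reads, so reads per gene along this stretch ranged from 0 to 88358.

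The length behind the RPKM was shorter than the GENCODE M21 length for more genes than Erbb3. Of 7161 genes with 50 or more reads and a GENCODE length, 342, or 4.78%, had a longest possible length under it. Erbb4, with 4 reads, and Nrg1, with 1 read, are further family genes of this kind, with at most 4599 bases against 12037 listed for Erbb4 and at most 2103 against 2452 for Nrg1. The cause of the shorter lengths was not tested.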
